A study of Mus musculus with 9 samples.

Results

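The TNF superfamily ligands were followed in murine Tc17 cells, which are CD8+ T cells driven in culture to make IL-17. The group comprised 10 genes, taken by symbol, with earlier results of these data known: Tnf, Lta, Ltb, Tnfsf8, Tnfsf9, Tnfsf10, Tnfsf11, Tnfsf14, Cd40lg and Fasl. All 10 had a row among the 41388 genes of the RNA-Seq table, and 8 of them reached the mean normalized count of 10 that the test required, as did 11599 genes in all. Naive CD62L+CD44-CD8+ T cells sorted from lymph nodes and spleen of C57BL/6 mice aged 8 to 12 weeks were primed for 48 h with anti-CD3, anti-CD28, IL-2, TGF-β and IL-6 under blockade of IFN-γ. Cultures held the solvent DMSO at 0.2% and nothing else (Ctrl), or had 20 µM dimethyl fumarate added (DMF), or the same dose of DMF together with 50 µM glutathione (DMF + GSH). DMF is a small electrophile used against multiple sclerosis, and glutathione is a cellular thiol that DMF can bind. Each group had 3 libraries. The study describes the replicates of its experiments as biological and independent, but does not say which libraries shared animals, and p-values measure the spread between these samples.

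Ligands of this superfamily are made as trimers, most of them held in the cell membrane, and act on neighbouring cells through receptors that either recruit TRAF adaptors and NF-κB or carry a death domain. T cells use them to kill targets (Fas ligand, TRAIL, TNF), to sustain other lymphocytes (CD40 ligand, 4-1BB ligand, CD30 ligand, LIGHT), and to shape lymphoid tissue and bone (the lymphotoxins, RANKL). Many are induced within hours of antigen receptor signalling, so that a level at 48 h is a single point on a course that was not followed here.

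Of the 8 ligands tested, Lta alone passed the threshold with DMF (adjusted p [p adj] under 0.01 and an absolute log2 fold change [log2FC] of at least 0.75, limma), which 2.89% of all tested genes did. Lta, which encodes lymphotoxin-α, rose 4.31-fold on the log2(normalized count + 1) scale. In bulk cultures such as these, more or fewer cells with a transcript and more or less of it per cell cannot be told apart. Its neighbour Ltb had a log2FC of −0.57, Tnfsf10 (TRAIL) of 0.71 and Tnfsf11 (RANKL) of 0.90. With GSH added to DMF, no ligand passed the threshold against Ctrl, nor did any other of the 11599 tested genes. The replicate numbers paired the samples, and a fit blocked on them gave a count of 2 with DMF, Lta and Tnfsf11, at a background of 6.8%.

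**Figure D1:**
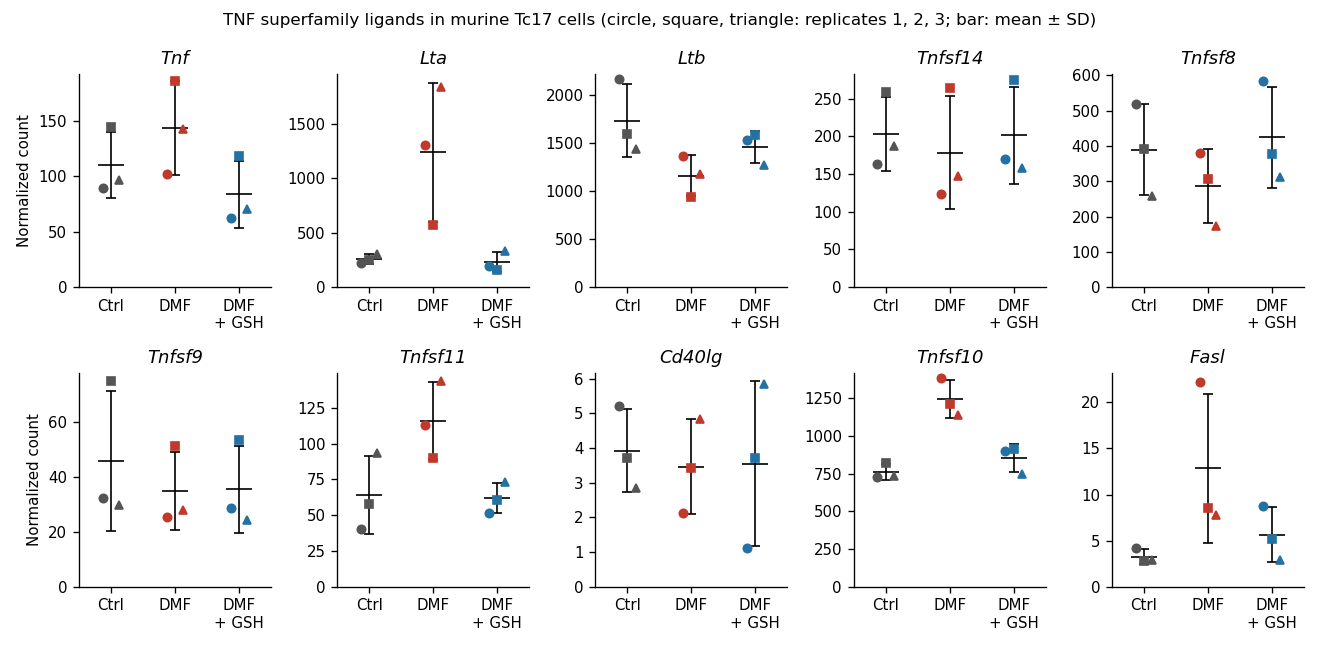
Normalized counts of the 10 ligands (y axes from 0, a scale of its own for each gene) in Ctrl, DMF and DMF + GSH, with 1 point per library and the mean ± SD of 3 libraries as a bar. The DMF libraries of Lta lie between 569 and 1842, above all Ctrl and DMF + GSH libraries, whereas those of Tnfsf14, Tnfsf9 and Cd40lg spread over the same range as the other groups.

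The libraries held 7671772 to 14511926 reads, recovered from the normalized values. By the labels, replicate 1 was batch 1 and replicates 2 and 3 were batch 2. The batches differed in Xist, the RNA of the inactive X chromosome. It had 2.20 to 5.20 normalized counts in the libraries of replicate 1 and 12006 to 18099 in the others. Replicate 1 thus did not come from the same animals as replicates 2 and 3. By this RNA, replicate 1 was male and replicates 2 and 3 held female cells. Batch and sex therefore cannot be told apart in the changes given by batch below. All 6 markers of CD8 T cells were expressed, with a summed normalized count of 28918 to 36750.1. Of the 2 CD4 T cell markers, Cd4 did not exceed 4.40, while Zbtb7b had means of 58.3 in Ctrl, 71.1 with DMF and 57.2 with DMF + GSH. The 5 B cell markers summed to 68.3 to 92.0 in Ctrl, 58.1 to 81.3 with DMF and 60.3 to 89.8 with DMF + GSH, mostly from Cd79b. Of 8 myeloid and dendritic cell markers, 7 were found. Their sum was 402 in Ctrl replicate 3 and 139 to 226 in the other 8 libraries, with Lyz2 at 119 and Csf1r at 58.3 in Ctrl replicate 3 against at most 10.6 and 5.83 elsewhere. Of the NK cell markers, Nkg7, which cytotoxic T cells also express, had 1335 to 1663 normalized counts in Ctrl, 1753 to 2369 with DMF and 1329 to 1660.1 with DMF + GSH, while Ncr1 and Klrb1c did not exceed 2.84. The 4 markers of stroma and erythroid cells summed to 290.1 to 753 in Ctrl, 149 to 246 with DMF and 280.03 to 606 with DMF + GSH, mostly from Pecam1, and Hbb-bs and Hba-a1 were at 0 throughout. The NK and stroma sums thus did not overlap between DMF and the other groups. Each of these sums rested mostly on 1 gene, Nkg7 or Pecam1. Whether other cells or the T cells themselves carried these transcripts was not tested. The part of such cells in the values below was not tested. Calls that changed without Ctrl replicate 3 are given below for the ligands and for most other genes named. They were not examined for Atp6v1g2, Gm11110, Fas and Tnfrsf14.

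Lymphotoxin-α is secreted as a homotrimer that binds the TNF receptors, or anchored at the membrane by lymphotoxin-β to bind the lymphotoxin-β receptor. Lta had 220, 250 and 307 normalized counts in Ctrl replicates 1, 2 and 3. With DMF it had 1307, 569 and 1842. With DMF + GSH it had 193, 160 and 335. The DMF libraries lay above all others without overlap, and replicate 2 was the lowest of them, while the Ctrl and DMF + GSH values were intermixed. The means were 259 ± 44.1 (SD, n = 3), 1239 ± 639 and 229 ± 93.5.

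The log2FC of Lta for DMF against Ctrl was 2.11 (SE 0.394, p adj = 0.00739, limma). Only 11 of the 11599 tested genes had a larger one. Within replicates 1, 2 and 3 the log2FC was 2.56, 1.19 and 2.58. It was 2.56 in batch 1 and 1.88 in batch 2. The replicate block left the log2FC at 2.11 with a smaller error (SE 0.174, p adj = 2.98e-08). Without the block, the call was lost when only the 6 Ctrl and DMF libraries were fitted (p adj = 0.0133). It was also lost without Ctrl replicate 1, Ctrl replicate 2, DMF replicate 1, DMF replicate 3 or DMF + GSH replicate 1 (p adj 0.0536, 0.0324, 0.0632, 0.038 and 0.0179). It held without Ctrl replicate 3, the library with the myeloid markers. With the block it held in all 9 fits without 1 library, with a log2FC of 1.89 to 2.47.

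For DMF + GSH against DMF, which shares the DMF libraries with that comparison, Lta had a log2FC of −2.35 (SE 0.394, p adj = 0.0107, limma), just short of the threshold, and with the block it passed (p adj = 1.74e-08), as it did in the unblocked fits without Ctrl replicate 3, DMF replicate 2 or DMF + GSH replicate 3. DMF + GSH against Ctrl gave −0.24 (SE 0.394, p adj = 1). The 3 tested genes whose log2 values followed Lta most closely over the 9 libraries were Ece2 (Pearson r 0.992), Dock5 (0.99) and Pes1 (0.988). These libraries share groups and batches, and the correlations are given as a description.

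Lta, Tnf and Ltb sit side by side in the major histocompatibility complex on chromosome 17 of GRCm38, and the 3 genes had log2FC of different sign and size with DMF. Lta (ENSMUSG00000024402) spans chr17:35203165-35205351 on the minus strand, Tnf (ENSMUSG00000024401) lies 1158 bp away at chr17:35199381-35202007 on the same strand, and Ltb (ENSMUSG00000024399) lies a further 3061 bp away at chr17:35194439-35196320 on the plus strand. Within 50000 bp of these genes, 5 others were tested. Of these, Atp6v1g2, which encodes a subunit of the vacuolar proton pump, passed the threshold with a log2FC of −0.90 (p adj = 0.0096), and Nfkbil1, Ddx39b, Prrc2a and Bag6 lay between −0.05 and 0.19. The small RNA genes Mir6974 and Mir6973a overlap the spans of Lta and Ltb and share no exon bases with them.

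**Figure D2:**
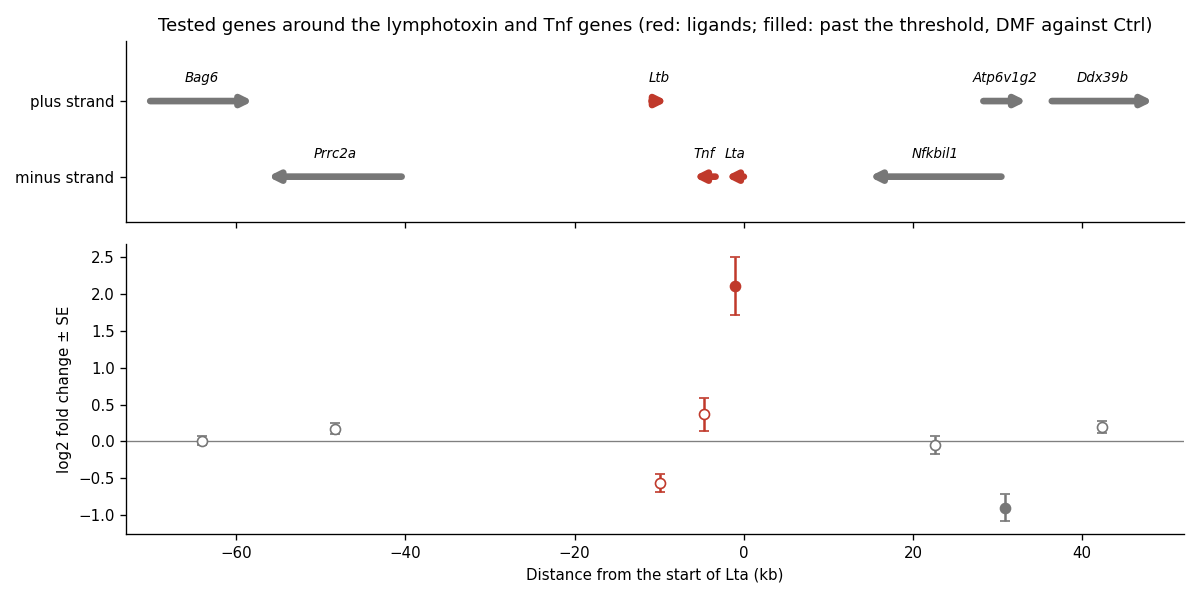
Tested genes around Lta, with distance from the start of Lta in kb on the x axis, arrows for gene span and strand (top), and the log2FC with DMF ± SE (bottom, limma, 9 libraries in the fit). Lta at 2.11 stands above Tnf at 0.37 and Ltb at −0.57, and 4 of the 5 other genes lie near 0.

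The 250 bases before the RefSeq start of each gene (GRCm38.p6) are shown because Lta passed the threshold while Tnf and Ltb, the next ligand genes of the cluster, did not, the windows of Tnf and Ltb having been added after their values were seen. Capitals mark matches, on either strand, to NFAT (TGGAAA), AP-1 (TGANTCA), the antioxidant response element (TGACNNNGC), FOXO (GTAAACA), T-box (AGGTGT) or NF-κB (by name), and no 2 of the marked motifs overlapped. The Lta window is chr17:35205352-35205601, the Tnf window chr17:35202008-35202257 and the Ltb window chr17:35194257-35194506, each printed 5′ to 3′ along its gene.
Lta: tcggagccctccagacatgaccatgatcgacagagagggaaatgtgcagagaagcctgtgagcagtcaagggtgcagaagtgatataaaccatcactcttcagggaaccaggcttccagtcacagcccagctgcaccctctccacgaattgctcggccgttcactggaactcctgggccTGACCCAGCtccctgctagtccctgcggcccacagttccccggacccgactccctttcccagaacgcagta
Tnf: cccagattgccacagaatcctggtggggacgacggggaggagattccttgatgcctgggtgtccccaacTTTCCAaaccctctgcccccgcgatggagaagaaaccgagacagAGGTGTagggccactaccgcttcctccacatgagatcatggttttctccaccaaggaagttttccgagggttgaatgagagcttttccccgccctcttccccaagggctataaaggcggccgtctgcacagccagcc
Ltb: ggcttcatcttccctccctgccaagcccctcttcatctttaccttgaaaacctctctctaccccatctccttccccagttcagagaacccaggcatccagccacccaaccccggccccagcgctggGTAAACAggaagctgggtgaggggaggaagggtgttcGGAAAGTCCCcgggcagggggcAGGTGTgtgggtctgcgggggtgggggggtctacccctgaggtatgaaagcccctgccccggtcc

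The Lta window held the letters of the antioxidant response element, 71 to 63 bases before the start, and no other of the 6 motifs. This pattern was in 1 of the 8 ligand promoters for which a window was at hand and in 10.2% of 32536 distinct promoter windows of that length. The Tnf window held NFAT letters 181 to 176 bases before the start and T-box letters 137 to 132 bases before it. The Ltb window held FOXO letters at 124 to 118 bases, NF-κB letters at 87 to 78 and T-box letters at 65 to 60. Over all windows, NFAT letters were in 18.6%, T-box letters in 11.9%, NF-κB letters in 7.28%, AP-1 letters in 6.73% and FOXO letters in 3.17%. A match gives only the letters present and says nothing of binding in these cells.

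Tnf encodes the founding member, a cytokine shed from the membrane that acts on TNF receptors 1 and 2. It had 89.4, 144 and 96.7 normalized counts in the Ctrl libraries, 102, 186 and 142 in those with DMF, and 62.7, 118 and 70.0 in those with DMF + GSH. Replicate 2 was the highest in every group, and the ranges of the groups overlapped. The log2FC with DMF was 0.37 (SE 0.223, p adj = 0.238, limma), higher in 3 of 3 replicates. It was −0.78 for DMF + GSH against DMF (SE 0.223, p adj = 0.0338), lower in 3 of 3 replicates, and the blocked fit called it (p adj = 0.00018). Against Ctrl, DMF + GSH gave −0.42 (p adj = 1).

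Ltb encodes lymphotoxin-β, the membrane anchor of the heterotrimer, and was the ligand with the highest level in Ctrl. It had 2163, 1593 and 1440 normalized counts in the Ctrl libraries, 1369, 939 and 1179 in those with DMF, and 1528, 1590 and 1274 in those with DMF + GSH. All DMF libraries were below all Ctrl libraries. The log2FC with DMF was −0.57 (SE 0.122, p adj = 0.011, limma), and with the block p adj was 8.49e-05, the fold staying under the threshold. The log2FC for DMF + GSH against DMF was 0.34 (p adj = 0.0681), with overlapping ranges.

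On the scale of normalized counts per kb of annotated exon, the balance between the lymphotoxins differed between the groups. The Lta level was 0.112, 0.172 and 0.234 of the Ltb level in Ctrl replicates 1, 2 and 3, 1.05, 0.664 and 1.71 in those with DMF, and 0.138, 0.11 and 0.289 in those with DMF + GSH. The DMF ratios did not overlap with the others, at an exact two-sided permutation p of 0.1 against Ctrl, the smallest that 3 against 3 libraries allow. The Lta to Tnf ratio was 2.06 to 3.76 in Ctrl and 3.63 to 15.3 with DMF, where replicate 2 at 3.63 lay within the Ctrl range (exact permutation p = 0.2). Ltb made up 58.2 to 69.5% of the summed level per kb of the 10 ligands in Ctrl, 29.5 to 37.3% with DMF and 56.3 to 61.0% with DMF + GSH. Lta made up 7.76 to 13.8%, 24.4 to 50.6% and 6.66 to 16.3%. The Lta level enters the sum under the Ltb share. Ltb itself had a mean per kb of 1143 in Ctrl and 767 with DMF. The ratios and shares were not planned and are made from the levels given above, so they are no separate evidence.

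**Figure D3:**
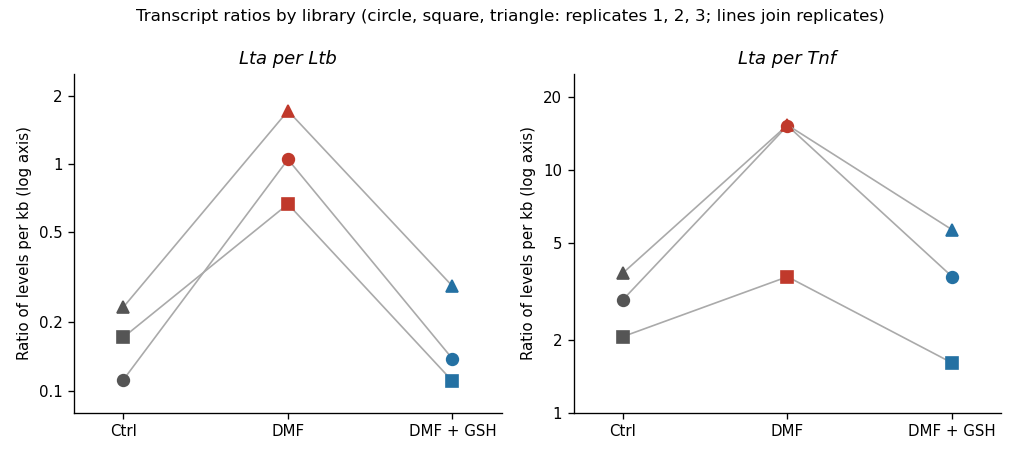
Ratio of Lta to Ltb (left) and of Lta to Tnf (right) in each library, from normalized counts per kb on a log axis, with lines joining the libraries of a replicate number. The ratio to Ltb is 0.112 to 0.234 in Ctrl and 0.664 to 1.71 with DMF, and the ratio to Tnf is higher with DMF in each replicate.

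The ligands best known for killing are TRAIL, which engages death receptor 5 in the mouse, and Fas ligand. Tnfsf10, encoding TRAIL (ENSMUSG00000039304, chr3:27317028-27342427, plus strand), had 726, 820 and 734 normalized counts in the Ctrl libraries, 1385, 1213 and 1140 in those with DMF, and 903, 915 and 746 in those with DMF + GSH. Every DMF library was above every library of the other groups, which overlapped each other. The log2FC with DMF was 0.71 (SE 0.101, p adj = 0.00457, limma), past the limit on p but not on the fold, and 3.83% of all tested genes had a larger log2FC. It was 0.93, 0.56 and 0.64 within replicates 1, 2 and 3. It was −0.54 for DMF + GSH against DMF (p adj = 0.0116). With the block, the call with DMF was made in 2 of the 9 fits without 1 library. These were the fits without Ctrl replicate 3 (log2FC 0.76, p adj = 2.59e-06, limma) and without DMF replicate 2 (log2FC 0.78, p adj = 1.2e-07).

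Fasl (ENSMUSG00000000817, chr1:161780689-161788495, minus strand) stayed under the minimum, with a mean of 7.25. It had 4.16, 2.79 and 2.84 normalized counts in the Ctrl libraries, 22.2, 8.56 and 7.74 in those with DMF, and 8.80, 5.20 and 2.92 in those with DMF + GSH, from 9, 39 and 18 reads in all. The DMF libraries were above the Ctrl libraries and replicate 1 was highest in each group. Fitted with no minimum, the log2FC with DMF was 1.56 (SE 0.497, p adj = 0.0593, limma), and 1.32 to 1.68 when each library was left out.

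Tnfsf11 encodes RANKL, which drives osteoclasts and dendritic cell survival through the receptor RANK. It is annotated at chr14:78277445-78308043 on the minus strand. It had 40.5, 57.6 and 93.9 normalized counts in the Ctrl libraries, 113, 89.9 and 144 in those with DMF, and 51.7, 60.9 and 72.9 in those with DMF + GSH. Ctrl replicate 3 reached into the DMF range, whereas the DMF + GSH libraries all lay below it. The log2FC with DMF was 0.90 (SE 0.259, p adj = 0.0287, limma), higher in 3 of 3 replicates, at 1.46 in batch 1 and 0.62 in batch 2. The call was made with the replicate block (p adj = 0.000562) and, in the fit with batch, without Ctrl replicate 3 or without DMF replicate 2. With the block it held in 7 of the 9 fits without 1 library and was lost without Ctrl replicate 1 or DMF replicate 1. Over these 9 fits the log2FC was 0.68 to 1.07, with p adj up to 0.0114 (limma). Between DMF + GSH and DMF the log2FC was −0.88 (p adj = 0.0372), and p adj was 0.000791 with the block.

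Of the costimulatory ligands among the 10, Tnfsf8, Tnfsf14 and Tnfsf9 did not pass the threshold in any of the 3 comparisons, with or without the block, and Cd40lg was under the minimum. Tnfsf8 (CD30 ligand, chr4:63831308-63861347, minus strand) had 518, 391 and 259 normalized counts in the Ctrl libraries, 380, 306 and 173 in those with DMF, and 584, 378 and 311 in those with DMF + GSH. The ranges overlapped because replicate 1 was highest and replicate 3 lowest in each group, but within each replicate DMF was below both other groups. Its log2FC with DMF was −0.46 (SE 0.207, p adj = 0.124, limma), with p adj = 0.000753 under the block and the fold below the threshold in both fits. Between DMF + GSH and DMF it was 0.59 (p adj = 0.0666), with p adj = 8.1e-05 under the block.

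Tnfsf14 (LIGHT, a ligand of HVEM and the lymphotoxin-β receptor) had 163, 258 and 188 normalized counts in the Ctrl libraries, 124, 264 and 147 in those with DMF, and 171, 275 and 158 in those with DMF + GSH. Replicate 2 was the highest in each group and the groups overlapped, with a log2FC with DMF of −0.24 (SE 0.252, p adj = 0.502, limma). Tnfsf9 (4-1BB ligand) had 32.2, 75.2 and 29.9 in Ctrl, 25.4, 51.4 and 28.1 in those with DMF, and 28.6, 53.5 and 24.3 in those with DMF + GSH, again highest in replicate 2. Its log2FC with DMF was −0.32 (SE 0.394, p adj = 0.566), and 0.05 without Ctrl replicate 2. The exons of Tnfsf9 (chr17:57105325-57107757, plus strand) overlap those of the antisense RNA Gm11110 over 192 bp. The library kit does not mark strand, so that reads of the overlap cannot be told apart, and Gm11110 itself had a log2FC with DMF of −1.36 (p adj = 0.00933).

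Cd40lg, encoding the CD40 ligand typical of helper T cells and annotated on the X chromosome, was near the limit of detection. It had 5.20, 3.72 and 2.84 normalized counts in the Ctrl libraries, 2.12, 3.42 and 4.84 in those with DMF, and 1.10, 3.71 and 5.83 in those with DMF + GSH, from 11, 11 and 12 reads in all. The groups overlapped, and at this depth a difference was not detectable.

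Per kb of exon, the ligands ranked in Ctrl from Ltb (1143 ± 251, SD, n = 3) through Lta (187 ± 31.9), Tnfsf10 (144 ± 9.91), Tnfsf14 (110 ± 26.7), Tnfsf8 (102 ± 34.0), Tnf (67.1 ± 18.1), Tnfsf9 (35.5 ± 19.8) and Tnfsf11 (28.6 ± 12.2) to Cd40lg (3.13 ± 0.951) and Fasl (1.68 ± 0.400). Neighbours from Tnfsf10 to Tnfsf11 in this order overlapped in their libraries. With DMF, Lta (896 ± 462) came first and overlapped with Ltb (767 ± 142), and Tnfsf10 (237 ± 23.9) followed without overlap. With DMF + GSH the order again began with Ltb (966 ± 110), followed without overlap by Lta (166 ± 67.6) and Tnfsf10 (162 ± 18.0), which overlapped each other.

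Across the 8 tested ligands, 4 had a higher and 4 a lower fitted level with DMF, with a median log2FC of 0.06 against 0.01 over all tested genes. Counting p adj under 0.01 alone, 2 of the 8 passed, Lta and Tnfsf10, at a background of 7.19%. With the block 5 did, namely Lta, Tnfsf10 and Tnfsf11 higher and Ltb and Tnfsf8 lower, at a background of 33.2%. The DMF and Ctrl libraries did not overlap for 3 of the 8 (Lta, Tnfsf10 and Ltb), close to the 41.3% of all genes. A share of this size is therefore no result about the ligands as a group.

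In the comparison of DMF + GSH with Ctrl, 0 of the 8 ligands passed, as was the case for 0% of all genes (limma). None of the 8 had an unadjusted p under 0.05 (1.91% of all genes did), nor did edgeR or DESeq2 on the recovered reads call any. Under the block 3 had such a p (Tnf, Ltb and Tnfsf10), against 5.16% of all genes, and 0 passed, at a background of 0.00862%. The libraries of both groups overlapped for all 8 ligands, at a background of 4.47% without overlap. The fitted log2FC ranged from −0.42 (Tnf) to 0.17 (Tnfsf10).

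For DMF + GSH against DMF, 0 of the 8 passed against 0.543% of all genes (limma), with 6 at an unadjusted p under 0.05, as were 37.9% of all genes. The call count was 0 with edgeR (background 0.569%), 1 with DESeq2 (Lta, background 3.39%) and 3 with the block (Lta, Tnf and Tnfsf11), where the background was 5.69%. By p adj under 0.01 alone the block gave 6, with Ltb and Tnfsf8 higher and Lta, Tnf, Tnfsf10 and Tnfsf11 lower, at a background of 29.2%. The libraries did not overlap for 3 of the 8 (Lta, Tnfsf10 and Tnfsf11), against 38.3% of all genes.

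**Figure D4:**
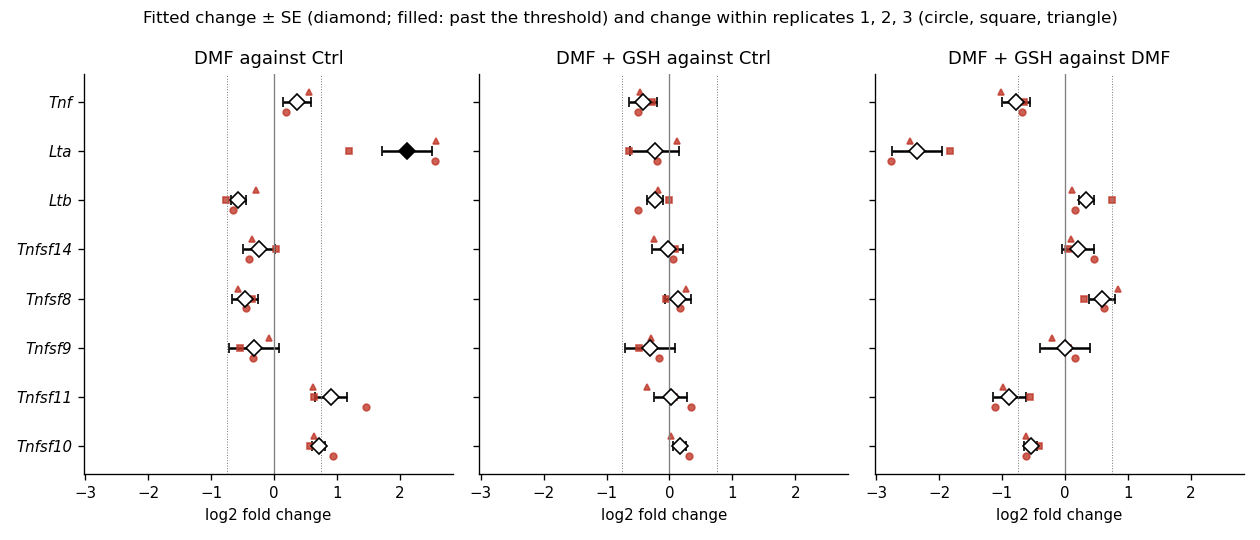
Log2FC of the 8 tested ligands in the 3 comparisons, with the limma fit of 9 libraries as a diamond ± SE and the change within each replicate number as small symbols, dotted lines marking 0.75 in either direction. Lta carries the largest values of the 8, 2.11 with DMF and −2.35 for DMF + GSH against DMF, and all fitted values against Ctrl with DMF + GSH lie between −0.42 and 0.17.

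Of 8 other ligands of the superfamily, only Tnfsf4, which encodes the costimulator OX40 ligand, reached the minimum, and it passed the threshold with DMF. Its mean was 54.0 ± 5.66 normalized counts in Ctrl and 104 ± 21.5 with DMF (SD, n = 3). The rise of 0.92 on the log2 scale had an SE of 0.159 and p adj = 0.0065 (limma). The call was lost with no batch term (p adj = 0.0172) and with only the 6 libraries (p adj = 0.0126). It was also lost in 5 of the 9 unblocked fits without 1 library, with p adj up to 0.0572. With the block and all libraries Tnfsf4 passed (p adj = 0.000165, limma). The other 7 had means of at most 1.55 in any group.

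Some receptors for the ligands are carried by T cells themselves. Of 13 receptor genes 10 were tested, and 6 were higher and 4 lower with DMF, with a median log2FC of 0.28. None passed the threshold with limma, edgeR or DESeq2, and 6 had an unadjusted p under 0.05, a limit that 41.5% of all tested genes met. The 2 with the largest log2FC were Tnfrsf11a (RANK, 1.38, p adj = 0.0789), which had 3.72 to 15.6 normalized counts in the Ctrl libraries, and Tnfrsf10b (death receptor 5, the receptor of TRAIL, 0.75, p adj = 0.00913), just under the fold required. Tnfrsf11a reached the minimum mean of 10 only through the DMF libraries, which favoured its place here. Its means were 9.22 in Ctrl, 23.9 with DMF and 3.34 with DMF + GSH. Without Ctrl replicate 3 Tnfrsf10b passed (log2FC 0.80, p adj = 0.00891). Tnfrsf10b went from 121 ± 13.9 in Ctrl to 204 ± 30.5 with DMF. Tnfrsf9 (4-1BB), named after its values were seen because it was the other receptor with p adj under 0.01, had 3407 ± 268 and 5617 ± 235 (log2FC 0.72, p adj = 0.00277). Fas (−0.71, p adj = 0.0267) and Tnfrsf14 (HVEM, −0.60, p adj = 0.0464) had the lowest values, were likewise named afterwards, and did not pass. The lymphotoxin-β receptor Ltbr and Cd40 were named for their role, also after their values were seen. They had at most 5.50 and 9.90 normalized counts in any library.

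Downstream of the receptors, all 16 genes of adaptors and death signalling were tested, 11 higher and 5 lower with DMF, with a median log2FC of 0.08. An unadjusted p under 0.05 was found for 7 of them (limma), against 41.5% of all tested genes. The threshold was passed by 1, against 2.89% of all tested genes. Mlkl, the executor of necroptosis, passed, rising from 114 ± 23.8 to 213 ± 10.2 normalized counts (log2FC 0.91, SE 0.13, p adj = 0.00457, limma). Its call was lost with only the 6 libraries (p adj = 0.0122) and in 5 of the 9 unblocked fits without 1 library, with p adj up to 0.0513. With the block and all libraries Mlkl passed (p adj = 1.05e-05, limma). Bid, which links death receptors to mitochondria and was named after its values were seen, had a log2FC of 0.80 (p adj = 0.01) and passed with the block (p adj = 8.01e-06), with edgeR, with DESeq2 and without Ctrl replicate 3 (log2FC 0.94, p adj = 0.00524), but not with only the 6 libraries.

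All 15 NF-κB factors and regulators were tested, 5 higher and 10 lower, with a median log2FC of −0.11 and none past the threshold with limma, edgeR or DESeq2, while 9 had an unadjusted p under 0.05 (41.5% of all genes). The 2 with the largest absolute log2FC were Tnfaip3 (A20, a brake on NF-κB, −0.69, p adj = 0.00918) and Map3k14 (NIK, the kinase of the alternative pathway, −0.39, p adj = 0.0395). Without Ctrl replicate 3, Tnfaip3 passed at −0.85. Of 12 genes of ligand shedding and mRNA decay 11 were tested, 4 higher and 7 lower, with a median of −0.07 and none past the threshold with these 3 tools, while 6 had an unadjusted p under 0.05, against 41.5% of all genes. Zfp36l1 (−0.59, p adj = 0.042) and Zfp36 (−0.44, p adj = 0.0274), which encode proteins that bring about decay of AU-rich transcripts such as those of Tnf, had the largest absolute log2FC.

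**Figure D5:**
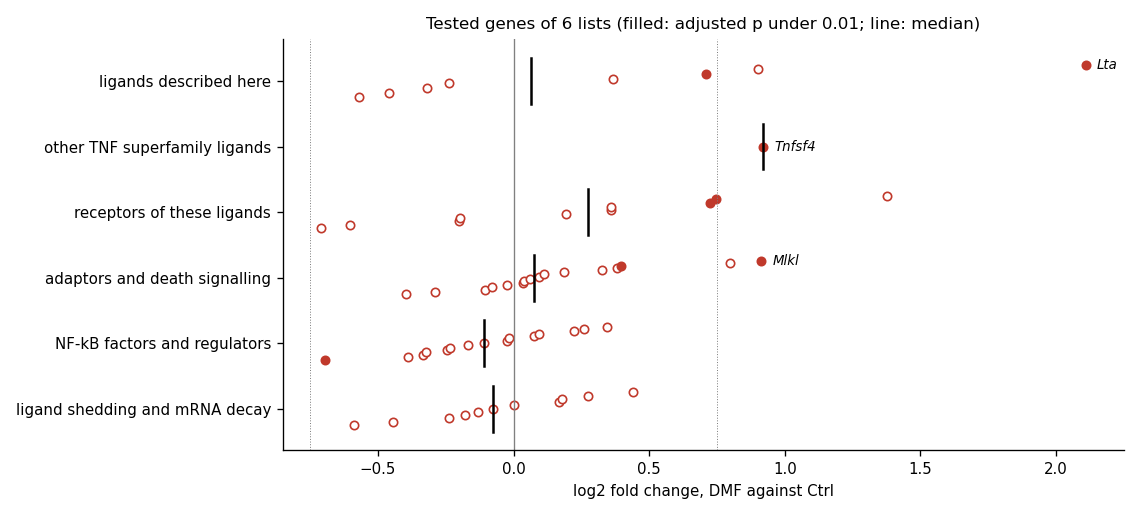
Log2FC with DMF against Ctrl (x axis, limma) for the tested genes of 6 lists, 1 point per gene, filled where p adj is under 0.01, with the median of each list as a line and dotted lines at 0.75 in either direction. Named genes passed the threshold: Lta at 2.11, Tnfsf4 at 0.92 and Mlkl at 0.91.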

How the data were processed

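The authors aligned single 50 bp reads to GRCm38 with STAR 2.4.0b, counted them per gene with featureCounts and fitted DESeq2 with batch. They deposited read counts divided by a factor per library, a signal unit called normalized counts here. Their own fold changes and p-values were not used. No source used here says if counting used strand. All values, 100%, came out as whole reads (tolerance 0.01) once divided by the smallest step of the library.

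Genes with a mean of at least 10 (11599 of 41388) were tested with limma-trend (limma 3.58.1, R 4.3.3) on log2(normalized count + 1), with batch as covariate, all 9 libraries sharing the spread, and Benjamini-Hochberg adjustment over all genes (p adj). The pseudocount understates changes of low genes. On the recovered reads, edgeR 4.0.16 called 338, 0 and 66 genes and DESeq2 1.42.0 551, 0 and 393, against 335, 0 and 63 (DMF against Ctrl, DMF + GSH against Ctrl, DMF + GSH against DMF). The test was checked on simulated data with a fixed change in some genes and no difference between batches or replicates. That check does not cover such differences, which these libraries have.

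The replicate numbers of the labels pair the samples. Libraries with the same number but different groups deviated together from their group means in all 9 pairs (r 0.447 to 0.578). Those with different numbers had r of −0.471 to −0.0621 in 18 pairs. As group means were subtracted, these negative values follow largely from the positive ones and are no separate evidence. Because of the pairing, the blocked value is given where it changes a call.

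The alternatives tried were a minimum of 50 or none, pseudocounts of 0.5 and 4, TMM and quantile scaling, no batch term, the block, only the 6 libraries compared, robust eBayes, edgeR, DESeq2, and each library left out, with and without the block. For Fasl and Cd40lg, fits with no minimum, blocked or without each library, were added after seeing the data. Members and lists were chosen with earlier results of these data known. Named were all 10 ligands, and from each other list the genes past the threshold or else the 2 with the largest absolute log2FC. Bid, Tnfrsf9, Fas, Tnfrsf14, Ltbr and Cd40 fall outside this rule and were named after their values were seen. Positions and exon lengths are from GENCODE vM21 (GRCm38) and promoters from RefSeq (GRCm38.p6), at hand for 8 of the 10 ligands. Figures were made with Python 3.11.15 and Matplotlib 3.10.9.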

Additional observations from a re-analysis of the deposited data

How the results depend on the processing

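The count of ligands past the threshold with DMF was 1 (Lta) and became 2 with the replicate block and 0 with only the 6 libraries compared, and it ranged from 0 to 3 when each library was left out, with or without the block. For DMF + GSH against DMF it was 0 and became 1 with no minimum, 1 with robust eBayes, 1 with DESeq2 and 3 with the block, and it ranged from 0 to 3 without each library. For DMF + GSH against Ctrl it was 0 under all alternatives run. Over all genes that comparison gave 0 calls without the block, 1 with it and at most 5 in blocked fits without 1 library. Calls over all genes moved too. With DMF they numbered 335, and 789 with the block and 43 with only the 6 libraries. Without each library they numbered 2 to 680 in unblocked fits, where a ligand's lost call came with a loss of calls over all genes. In blocked fits without each library they numbered 561 to 865. They numbered 63 for DMF + GSH against DMF, and 273 with no minimum, 99 with robust eBayes, 393 with DESeq2 and 660 with the block. Without each library they numbered 0 to 480 in unblocked fits and 404 to 728 in blocked fits. The cause was not tested. The sign of a log2FC turned only for ligands not called in that comparison. For DMF + GSH against DMF, Tnfsf9 went from 0.01 to −0.069 with quantile scaling. For DMF + GSH against Ctrl, Tnfsf11 went from 0.02 to −0.00637 with edgeR and to −0.017 with DESeq2. Without each library, the log2FC of DMF + GSH against Ctrl ranged over 0 for Lta (−0.56 to 0.10), Tnfsf8 (−0.027 to 0.297), Tnfsf9 (−0.656 to 0.0555), Tnfsf11 (−0.20 to 0.29), Tnfsf14 (−0.21 to 0.22) and Cd40lg (−0.55 to 0.29). So did that of DMF + GSH against DMF for Tnfsf9 (−0.27 to 0.34) and Cd40lg (−0.39 to 0.37), and that of DMF against Ctrl for Tnfsf9 (−0.664 to 0.048) and Cd40lg (−0.44 to 0.38). Of 777 ligand values under alternatives, 695 kept direction and side of the threshold, 44 gained the call, 6 lost it and 32 turned in sign. Depth limits Fasl and Cd40lg, which rest on at most 39 reads per group.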
